A study of Homo sapiens with 12 samples.

Results

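Actomyosin and actin regulators are described here as 41 genes, chosen by their symbols, of the 19516 genes with a symbol in the deposited count table, and all 41 passed the filter on low counts. RNA was sequenced from 2 human lines of triple-negative breast cancer, MDA-MB-231 and HCC1937, each labelled as wild type. Both were kept for 72 h either as controls or with an aqueous extract of the plant Kalanchoe pinnata, in 4 groups of 3 libraries. The extract was given at 140 µg/mL to MDA-MB-231, which grew in DMEM, and at 66 µg/mL to HCC1937, which grew in RPMI 1640, and both media held fetal bovine serum and antibiotics. Line, medium and concentration cannot be told apart. Library numbers follow the labels, with E1, E2 and E3 for untreated and E7, E8 and E9 for treated MDA-MB-231, and E25, E26 and E27 for untreated and E31, E32 and E33 for treated HCC1937, and values are listed in that order. Groups were taken from the sample titles, since the labels' cell line field disagrees with them: the number in the line's name rises from sample to sample within each line. The labels do not say that the libraries of a group came from separate cultures, so a p-value measures library-to-library spread, and that spread may be purely technical. The members fall into 11 roles, from the actins and their crosslinkers to the myosin II motor, its regulators, and the factors that assemble, sever and anchor filaments.

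Actin polymerises into filaments, and bipolar filaments of non-muscle myosin II pull on them to make tension in stress fibres and at the cell cortex. Myosin II is switched on when its regulatory light chains are phosphorylated by myosin light chain kinase or by the ROCK kinases downstream of RHOA, and switched off by a phosphatase that holds PPP1CB and its targeting subunit PPP1R12A. Formins and the ARP2/3 complex add new filaments, cofilin severs old ones until LIM kinases phosphorylate it, and in breast cancer cells these reactions drive adhesion, migration and division.

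Many actin genes are targets of serum response factor (SRF) and its actin-sensing cofactors, the MRTFs, which bind a 10-base element called the CArG box. The element was searched on both strands of the 250 bases before each start site in RefSeq promoters (GRCh38.p14). The 37 members with an entry have 66 promoters, of which 6 (9.09%) held a CArG box, beside 1.18% of 22198 promoters over all genes. RefSeq promoter entries were not matched for ACTB, CTTN, MYL9 and TAGLN. The elements of all 6 members are printed 5′ to 3′ on the gene's strand with the CArG box in capitals, because they are the letter match that these promoters share. The windows hold 30 bases where an exon overlaps the element.
ACTG1: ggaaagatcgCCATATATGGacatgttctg
ACTN1: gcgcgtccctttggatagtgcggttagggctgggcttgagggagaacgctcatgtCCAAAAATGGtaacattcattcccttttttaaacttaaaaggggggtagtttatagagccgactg
CNN2: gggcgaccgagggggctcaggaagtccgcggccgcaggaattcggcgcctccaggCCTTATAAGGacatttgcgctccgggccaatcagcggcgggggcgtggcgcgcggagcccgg
FLNA: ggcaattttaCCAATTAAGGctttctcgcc
MYLK: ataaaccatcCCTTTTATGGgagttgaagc
TPM4: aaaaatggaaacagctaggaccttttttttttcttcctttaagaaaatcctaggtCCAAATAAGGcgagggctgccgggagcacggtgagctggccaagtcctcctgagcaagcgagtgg
The windows lie at ACTG1 chr17:81512874-81512903 on the minus strand, ACTN1 chr14:68977673-68977792 on the minus strand, CNN2 chr19:1026464-1026580 on the plus strand, FLNA chrX:154374709-154374738 on the minus strand, MYLK chr3:123620623-123620652 on the minus strand, TPM4 chr19:16067310-16067429 on the plus strand. Of these 6 genes, ACTG1, ACTN1, CNN2 and FLNA rose with extract in both lines, as 24.3% of all genes tested did. TPM4 rose in MDA-MB-231 and was not called in HCC1937, and MYLK fell in MDA-MB-231 and was not called in HCC1937. With the length and GC offset described below, the calls of CNN2 and MYLK in HCC1937 and of TPM4 in MDA-MB-231 changed. Whether the element bears on these changes was not tested. The MYLK window lies inside the gene (chr3:123610049-123884331, minus strand) and near its 3′ end, so it stands before an internal start site. The ACTG1, ACTN1 and TPM4 windows also lie within the spans of their genes. Levels are those of a whole gene and do not separate its start sites. A match describes letters in the window and is not a measured binding site.

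Library totals ran from 16170342 to 31337259 rounded counts. Levels are given in CPM, counts scaled to library size after TMM normalization between libraries, and a gene's limit of 3 counts was worth 0.0990 to 0.213 CPM depending on the library. Together the members held 2.05 to 2.07% of all counts in untreated MDA-MB-231 and 2.14, 2.93 and 2.92% with extract, and 1.93 to 1.94% in HCC1937 controls and 2.605 to 2.618% with extract. Library E7 stood apart from E8 and E9: mitochondrially encoded genes took 10.7% of its counts beside 4.62 and 4.78%, and the biological coefficient of variation was 0.294 in its group and 0.0408 to 0.0449 in the others. All 4 groups were fitted in 1 model, so this spread also enters the SEs and p-values in HCC1937 and between the controls. A member can therefore be left uncalled there although its groups do not overlap. Of the 41 members, 39 lay outside the E8 to E9 range in E7, with 17 above and 22 below, and the log2 fold change of each member in MDA-MB-231 is therefore also given without E7. The extract effect also moved with transcript shape: over all 14054 genes with a model, log2 fold changes correlated with transcript length at a Spearman coefficient of -0.39 in MDA-MB-231 and -0.37 in HCC1937, and with GC content at 0.47 and 0.55. The extract effect on each member is therefore also given in each line from a fit with a length and GC offset, which sets a gene against genes of like length and GC content in the same library. The offset used the longest coding transcript of each gene, and the direction of some members changed with the coding transcript of median length. What part length and GC content had in the change of a single gene was not tested. Both lines are labelled epithelial: vimentin (VIM) stood at 3736 CPM in MDA-MB-231 controls and 13.9 CPM in HCC1937 controls, and CDH1 and KRT5 had no reads in MDA-MB-231 and 186 and 58.8 CPM in HCC1937. Of 6 smooth muscle markers, which bear on TAGLN and ACTA2, SMTN gave most of the summed level of 122 to 128 CPM in MDA-MB-231 controls, 120.4 to 129.7 CPM with extract, and 37.8 to 41.7 and 89.7 to 94.02 CPM in HCC1937. The other 5 summed to 3.53 to 3.85 CPM in MDA-MB-231 controls and 3.35 to 4.91 CPM with extract, and 3.52 to 3.61 and 1.09 to 1.74 CPM in HCC1937. Of 4 immune markers CD68 gave nearly all of the level, with the other 3 summing to at most 0.943 CPM in any library, and 3 endothelial markers summed to 1.04 to 1.38 CPM in MDA-MB-231 controls and 23.95 to 24.5 CPM in HCC1937 controls. The part of other cells in the results was not tested. In bulk RNA, fewer cells of a kind and less RNA per cell cannot be told apart.

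With extract, the genes for the cytoplasmic actins (ACTB and ACTG1), the 3 crosslinkers and cofilin 1 (CFL1) rose in both lines, while the phosphatase subunit PPP1R12A, the formin DIAPH3, girdin (CCDC88A), radixin (RDX), myosin IIB (MYH10) and TPM2 fell in both. With the offset the crosslinker ACTN4 was called in neither line. By edgeR's quasi-likelihood test, in which a gene rose or fell at a Benjamini-Hochberg adjusted p under 0.05 over all genes tested, 18 members rose and 13 fell in MDA-MB-231, where 33.02% of 14133 genes were called higher and 32.8% lower. In HCC1937, 17 members rose and 12 fell, where 32.7% of genes were called higher and 39.1% lower. The shares of members called, 43.9% higher and 31.7% lower in MDA-MB-231 and 41.5% and 29.3% in HCC1937, were above the background for rises and near or below it for falls. The members had a median log2 fold change of 0.37 (MDA-MB-231) and 0.10 (HCC1937), beside 0.00 and -0.16 over all genes tested. The HCC1937 median ranged from 0.09 to 0.31 over the alternatives, with 0.31 from the HCC1937 libraries alone, 0.20 by DESeq2 or with its size factors, 0.21 with an offset from the median-length transcript and 0.16 without E31. By limma voom the MDA-MB-231 median was 0.16. Without E7, 23 members rose and 16 fell in MDA-MB-231 (background 37.3% and 37.2%), with a median of 0.16. The offset gave 21 rises and 15 falls in MDA-MB-231 (background 34.97% and 30.3%), with a median of 0.23, and 20 rises and 12 falls in HCC1937 (background 34.7% and 33.1%), with a median of 0.14. TMM takes most genes as unchanged, so each rise or fall is measured against the bulk of the genes.

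**Figure D1:**
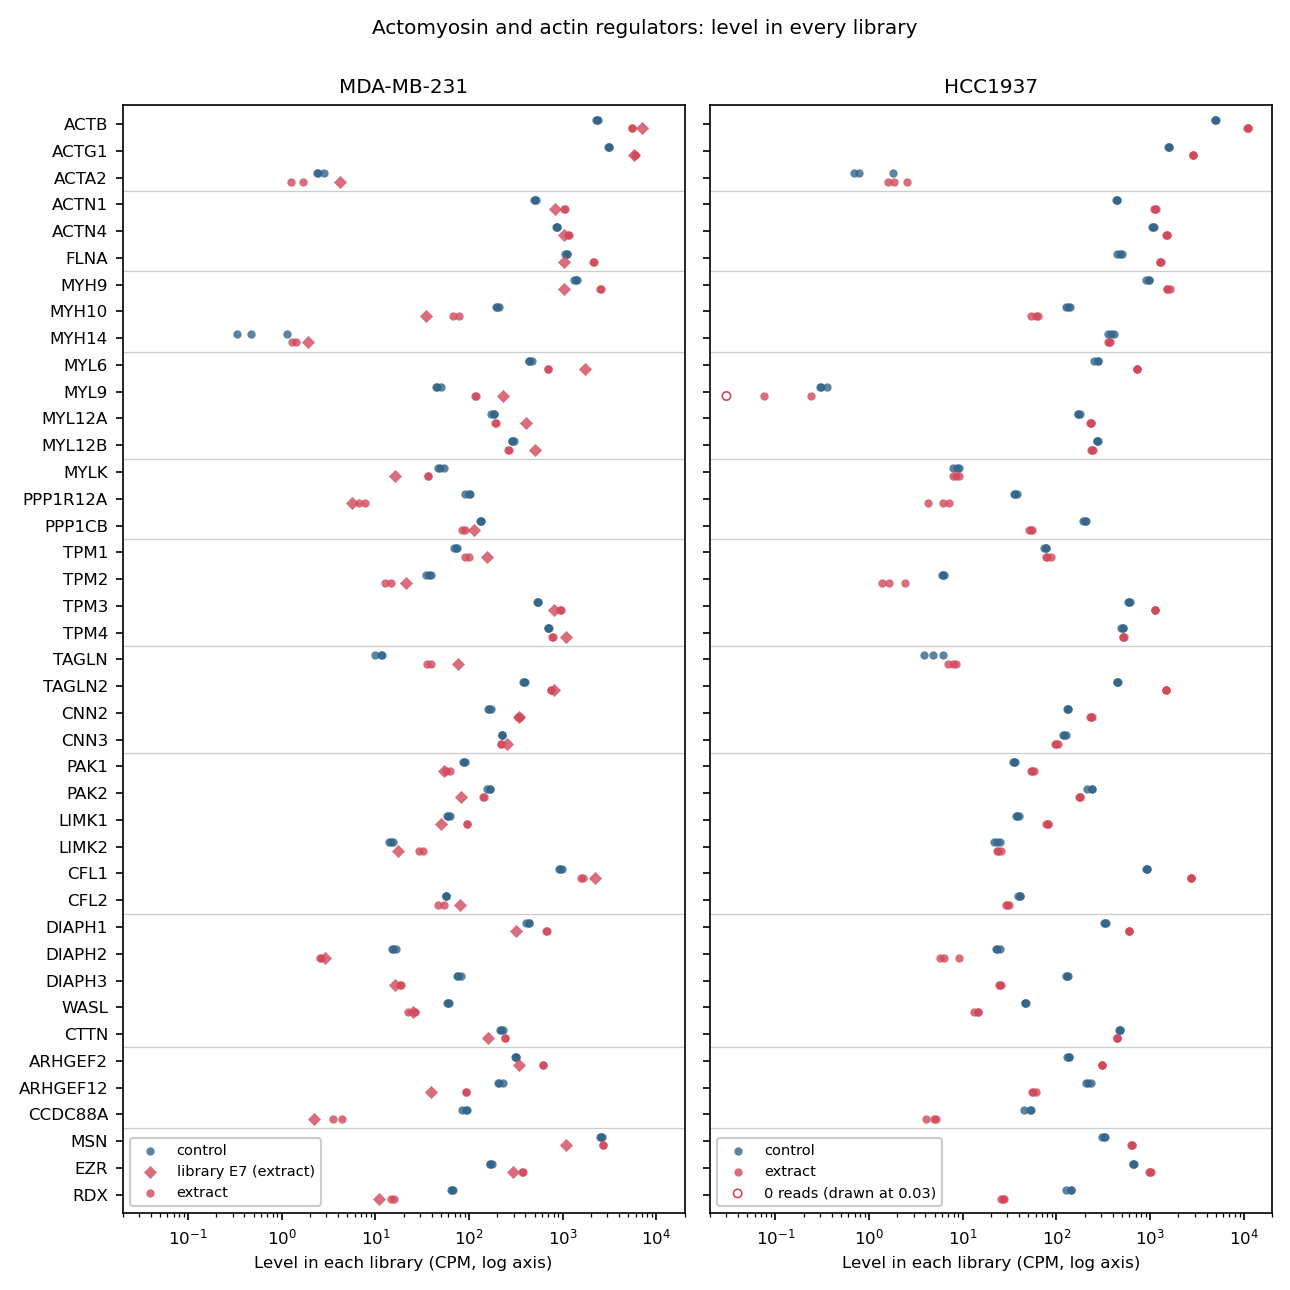
Level of each of the 41 members in every library (points; CPM on a log axis) in MDA-MB-231 (left) and HCC1937 (right), controls in blue and extract in red, with library E7 as a diamond and a library without reads as an open circle at 0.03. The replicates of a group sit close together except for E7, which lies to one side of E8 and E9 for most members, and the extract libraries of CCDC88A and PPP1R12A lie far below the controls in both lines.

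As deposited, 12 members rose in both lines (24.3% of all genes tested did) and 10 fell (25.3%), and 1 member, PAK1, moved in opposite directions (3.90%). With the offset MYLK (-0.41 in MDA-MB-231 and 0.42 in HCC1937), LIMK2 (0.52 and -0.35) and MSN (-0.48 and 0.87) were also called in opposite directions. The share of all genes called in opposite directions with the offset is not given here, and 3.90% holds for the counts as deposited. The lines share no library, and concentration and medium differed between them. Across the 41 members the 2 lines' log2 fold changes had a Spearman correlation of 0.70 as deposited and 0.49 with the offset, beside 0.70 and 0.58 over all genes tested. These correlations are across genes, which are not independent replicates and share length and GC content between the lines.

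**Figure D2:**
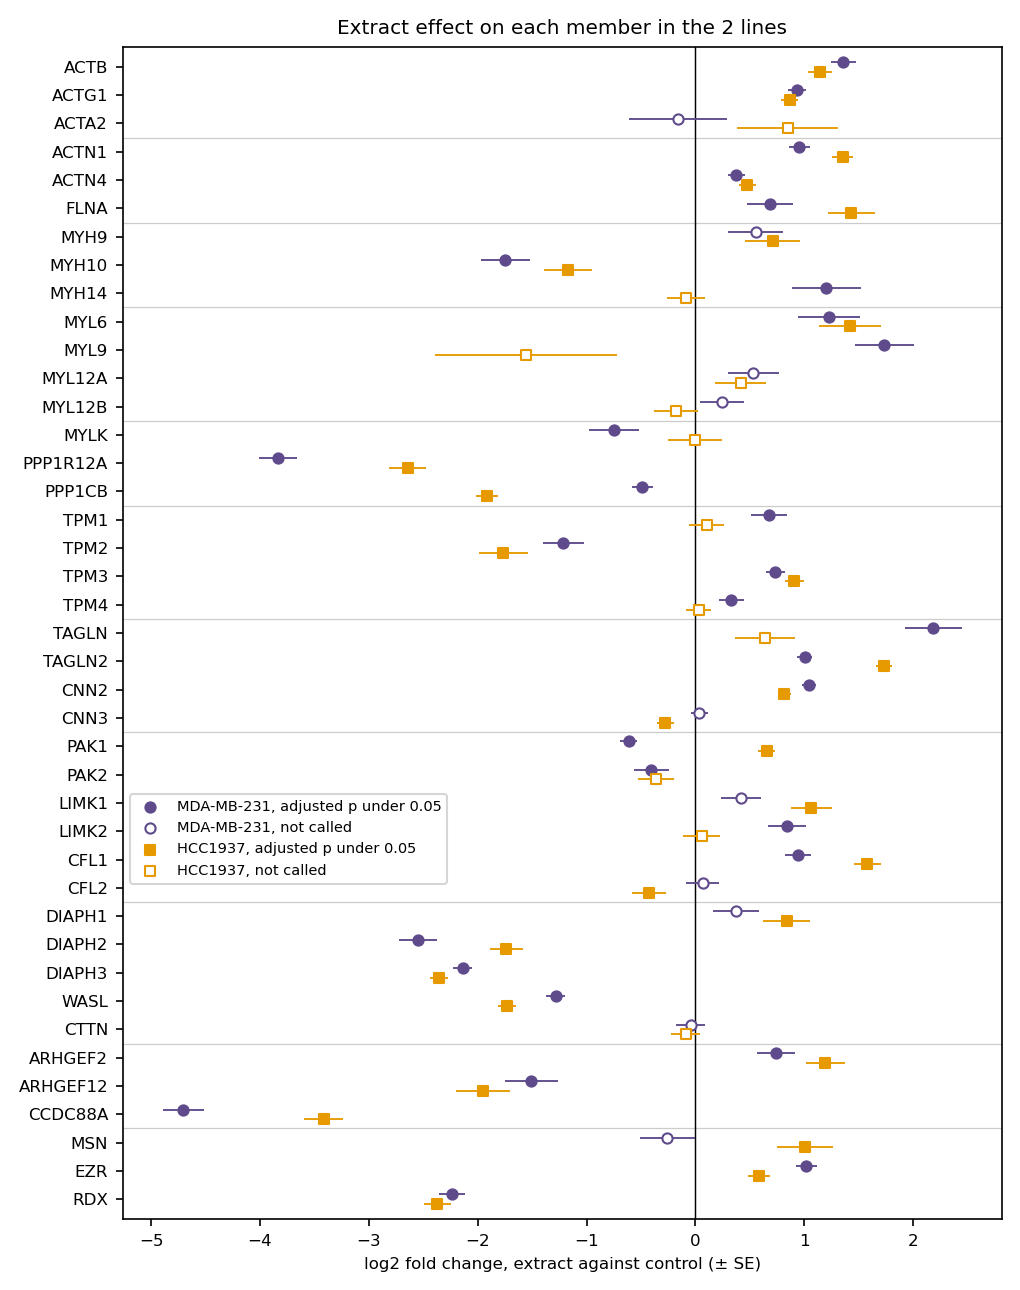
Log2 fold change of extract against control (± SE) for each member in MDA-MB-231 (purple circles) and HCC1937 (orange squares), filled where the adjusted p was under 0.05 and ordered by role, with grey lines between roles. CCDC88A shows the lowest values in both lines, at -4.70 and -3.41, and PAK1 is the 1 member filled on opposite sides of 0.

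The cytoplasmic actins, which make up the filament, rose in both lines. ACTB (Entrez 60; chr7:5527147-5563784, minus strand), beta-actin, stood at 2390.4, 2316 and 2283 CPM in MDA-MB-231 controls and 6989, 5478 and 5455 CPM with extract. In HCC1937 it stood at 4925, 4895 and 5066 CPM in controls and 10973, 11005 and 10948 CPM with extract. Every extract library lay above every control library in both lines. The log2 fold change was 1.36 ± 0.11 in MDA-MB-231 (SE; edgeR adjusted p = 7.7e-07) and 1.15 ± 0.11 in HCC1937 (edgeR adjusted p = 2.28e-06), with 1.24 in MDA-MB-231 without E7. The offset lowered both values, to 0.69 and 0.38, and both remained called. ACTG1, gamma-actin, moved from 3088 ± 73.2 to 5893 ± 75.96 CPM in MDA-MB-231 (SD, n = 3) and from 1579.7 ± 18.2 to 2880.0 ± 17.4 CPM in HCC1937. It rose by 0.93 and 0.87 on the log2 scale, and by 0.33 and 0.14 with the offset and 0.95 without E7. ACTA2, the smooth muscle actin, was low, at 2.54 ± 0.237 CPM in MDA-MB-231 controls and 1.09 ± 0.626 CPM in HCC1937 controls. It was not called in either line, with log2 fold changes of -0.16 and 0.85; without E7 the MDA-MB-231 value was -0.78 (edgeR adjusted p = 0.0495). With the offset ACTA2 was called lower in MDA-MB-231, at -0.89 (edgeR adjusted p = 0.0485), and was 0.11 and not called in HCC1937. ACTB and ACTG1 transcripts share sequence: 28.3% of the 31-base words of ACTB and 17.6% of those of ACTG1 occur in other genes. In other coding genes 13.1% and 6.38% of the words occur. Each of these 2 genes gave the most matches to the other over all transcripts, so the split of reads between them is uncertain to that extent.

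As deposited, all 3 crosslinkers, which tie filaments into bundles and networks, rose in both lines. Alpha-actinin 1, ACTN1 (Entrez 87; chr14:68874143-68979440, minus strand), stood at 501, 512 and 492 CPM in MDA-MB-231 controls and 832, 1058 and 1031 CPM with extract. Its HCC1937 levels were 446, 447 and 438 CPM in controls and 1141, 1109 and 1152 CPM with extract. The groups did not overlap in either line. It rose by 0.96 ± 0.10 in MDA-MB-231 on the log2 scale (SE; edgeR adjusted p = 3.3e-06; 1.06 without E7) and by 1.35 ± 0.10 in HCC1937 (edgeR adjusted p = 1.39e-07), and the offset gave 0.67 and 0.92. Filamin A, FLNA (Entrez 2316; chrX:154348524-154374638, minus strand), an X-linked crosslinker of filaments into gels, stood at 1046, 1122 and 1119 CPM in MDA-MB-231 controls and 1029.6, 2129 and 2128 CPM with extract. In HCC1937, FLNA was at 483, 496 and 447 CPM in controls and 1263, 1276 and 1308 CPM with extract. E7 was below all 3 controls for FLNA in MDA-MB-231, whereas E8 and E9 were above them, and the HCC1937 groups did not overlap. Its log2 fold change was 0.69 ± 0.21 in MDA-MB-231 (edgeR adjusted p = 0.0139), 0.96 without E7, and 1.43 ± 0.22 in HCC1937 (edgeR adjusted p = 8.73e-05). FLNA is long and rich in GC (8.52 kb, 62.2%), and the offset moved it little, to 0.79 and 1.56. ACTN4, the second alpha-actinin, rose by 0.38 (0.44 without E7) and 0.48, and lost both calls with the offset, at 0.22 (edgeR adjusted p = 0.0699) and 0.16 (edgeR adjusted p = 0.181). An offset from the median-length transcript turned both values of ACTN4 negative without a call, at -0.13 (edgeR adjusted p = 0.141) and -0.16 (edgeR adjusted p = 0.086).

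The heavy chains of non-muscle myosin II, the motor itself, did not move together. MYH9, myosin IIA, held 1333, 1406 and 1400.3 CPM in MDA-MB-231 controls and 1037, 2543 and 2494 CPM with extract. Its levels in HCC1937 were 983, 977 and 895 CPM in controls and 1527, 1522 and 1625 CPM with extract. E7 lay below the MDA-MB-231 controls and E8 and E9 far above them, while the HCC1937 groups did not overlap. MYH9 rose in HCC1937, by 0.71 ± 0.25 (SE; edgeR adjusted p = 0.0244), and was not called in MDA-MB-231, at 0.55 ± 0.25 (edgeR adjusted p = 0.0727), where it was 0.87 and called without E7. With the offset MYH9 was called in both lines, at 0.49 (edgeR adjusted p = 0.000227) and 0.65 (edgeR adjusted p = 2e-05). MYH10, myosin IIB, held 195, 209 and 201 CPM in MDA-MB-231 controls and 34.6, 67.8 and 77.3 CPM with extract. HCC1937 had 134, 140 and 127 CPM in controls and 53.8, 61.1 and 63.2 CPM with extract. All extract libraries lay below all controls of their line, with E7 lowest. MYH10 fell by 1.75 ± 0.22 in MDA-MB-231 (edgeR adjusted p = 2.73e-05) and fell by 1.17 ± 0.22 in HCC1937 (edgeR adjusted p = 0.000462). The offset values were -1.58 and -0.93, and -1.47 was found without E7. MYH14, myosin IIC, was near absent in MDA-MB-231, with 39 reads over the 3 controls and 93 over the 3 extract libraries, and stood at 384 ± 24.3 CPM in HCC1937 controls. Its rise in MDA-MB-231, 1.20 ± 0.32 (edgeR adjusted p = 0.00572), therefore rests on few reads, and it was not called in HCC1937, at -0.08. The value in MDA-MB-231 was 1.06 without E7, and the offset gave 1.16 and -0.07.

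Among the light chains, MYL6 rose in both lines and MYL9 in MDA-MB-231. MYL6 (Entrez 4637; chr12:56158161-56163496, plus strand), the essential light chain, stood at 466, 434 and 433 CPM in MDA-MB-231 controls and 1734, 689 and 704 CPM with extract. In HCC1937 it held 279, 252 and 277 CPM in controls and 718, 720 and 724 CPM with extract. E7 had the highest level by far, and the groups did not overlap in either line. MYL6 rose by 1.23 ± 0.28 in MDA-MB-231 (SE; edgeR adjusted p = 0.00242), by 0.65 without E7, and by 1.42 ± 0.29 in HCC1937 (edgeR adjusted p = 0.000791), and the offset gave 0.40 and 0.58. MYL9 (Entrez 10398; chr20:36541484-36551447, plus strand), a regulatory light chain abundant in smooth muscle, stood at 50.3, 45.6 and 43.9 CPM in MDA-MB-231 controls and 233, 116 and 118 CPM with extract. It was scarce in HCC1937, with 27 reads over the 3 controls and 8 over the 3 extract libraries (0.307, 0.297 and 0.352 CPM and 0, 0.241 and 0.0754 CPM). All MDA-MB-231 extract libraries lay above the controls, and E7 lay above the other two. MYL9 rose by 1.74 ± 0.27 in MDA-MB-231 (edgeR adjusted p = 0.00013), by 1.33 without E7 and by 1.29 with the offset, and was not called in HCC1937, at -1.55 (-2.14 with the offset). The ubiquitous regulatory light chains MYL12A and MYL12B were called in neither line, at 0.53 and 0.42 for MYL12A and 0.24 and -0.18 for MYL12B. In HCC1937 the MYL12A extract libraries nonetheless lay above all controls, at 227 to 233 CPM beside 170 to 178 CPM. The SE there came from the model that also holds E7. Without E7 the MDA-MB-231 values were 0.07 for MYL12A (edgeR adjusted p = 0.133) and -0.13 for MYL12B (edgeR adjusted p = 0.00249). With the offset MYL12A was 0.08 and not called in MDA-MB-231 and was called higher in HCC1937, at 0.27 (edgeR adjusted p = 0.00507). MYL12B turned lower with the offset, at -0.43 (edgeR adjusted p = 2.27e-05) and -0.81 (edgeR adjusted p = 7.41e-08). An offset from the median-length transcript instead gave a call higher for MYL12B in HCC1937, at 0.73 (edgeR adjusted p = 0.000699). These 2 neighbouring genes share 17.6% and 21.2% of their 31-base words with other genes, and 14.3% and 14.0% with other coding genes. Each gave the most matches to the other over all transcripts, so how reads were split between them is uncertain.

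Both subunits of myosin phosphatase fell in both lines, and the opposing kinase MYLK fell in MDA-MB-231. PPP1R12A (Entrez 4659; chr12:79773563-79935460, minus strand), the targeting subunit of myosin phosphatase, stood at 89.4, 98.8 and 102 CPM in MDA-MB-231 controls and 5.69, 7.75 and 6.67 CPM with extract. Its HCC1937 libraries gave 35.95, 35.4 and 37.9 CPM in controls and 6.11, 7.15 and 4.23 CPM with extract. Extract libraries lay far below controls in both lines with no overlap, and E7 was close to E8 and E9. The fall was 14.3-fold in MDA-MB-231, -3.84 ± 0.18 on the log2 scale (SE; edgeR adjusted p = 6.44e-09; -3.73 without E7), and 6.25-fold in HCC1937, -2.64 ± 0.17 (edgeR adjusted p = 6.08e-08). The offset left -2.46 and -0.95, both called. PPP1CB (Entrez 5500; chr2:28751640-28802940, plus strand), the catalytic subunit, stood at 132, 135 and 135 CPM in MDA-MB-231 controls and 112, 84.3 and 90.5 CPM with extract. In HCC1937 it was at 192, 203 and 209 CPM in controls and 54.96, 51.3 and 54.1 CPM with extract. The groups did not overlap in either line, and the gap was wider in HCC1937. PPP1CB fell as deposited, with -0.49 ± 0.10 (edgeR adjusted p = 0.00109; -0.61 without E7) and -1.91 ± 0.10 (edgeR adjusted p = 1.63e-08). Its longest coding transcript has 4.89 kb and 35.5% GC, the lowest GC content of the members, and with the offset it was higher in MDA-MB-231, at 1.23 (edgeR adjusted p = 7.46e-08), and not called in HCC1937, at 0.10 (edgeR adjusted p = 0.331). PPP1CB kept its negative sign in both lines with an offset from the median-length transcript. MYLK went down in MDA-MB-231 from 49.7 ± 4.11 to 29.4 ± 11.6 CPM, a log2 fold change of -0.75, with -0.45 without E7 and -0.41 with the offset. It stood at 8.51 ± 0.599 and 8.501 ± 0.624 CPM in HCC1937, a log2 fold change of -0.001 that the offset moved to 0.42 (edgeR adjusted p = 0.00441).

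Tropomyosins, coiled coils that line the filament and gate myosin access, split by gene. TPM2 fell in both lines, from 37.1 ± 2.303 to 16.1 ± 4.48 CPM in MDA-MB-231 (SD, n = 3) and from 6.15 ± 0.131 to 1.8 ± 0.547 CPM in HCC1937. The log2 fold changes were -1.21 ± 0.19 (SE; edgeR adjusted p = 0.000133; -1.44 without E7) and -1.76 ± 0.23 (edgeR adjusted p = 2.33e-05), and the groups did not overlap in either line. TPM2 has a short GC-rich transcript (1.39 kb, 60.4%), unlike the other members that fell in both lines, and the offset took it further down, to -2.04 and -2.70. TPM3 rose in both lines, by 0.74 (0.82 without E7) and 0.91, and by 0.75 and 1.23 with the offset. TPM1 rose in MDA-MB-231, by 0.68 (0.40 without E7), and was not called in HCC1937, at 0.10. With the offset TPM1 was called in both lines, at 0.81 and 0.47 (edgeR adjusted p = 0.0438 in HCC1937). TPM4 rose in MDA-MB-231 by 0.33 (0.16 without E7) and lost the call with the offset, at -0.01, and in HCC1937 it was not called, at 0.03 (-0.20 with the offset). Other genes carry 40.7% of the 31-base words of TPM4 and 17.9% of those of TPM3, and 2.01% and 2.53% of the words lie in other coding genes, so both levels are uncertain to that extent. Of the members without a share printed here or above, TAGLN2 (15.25%), RDX (13.5%), CNN2 (11.3%) and MSN (10.7%) had the largest. Their levels are uncertain in the same way.

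Transgelins and calponins bind along filaments, and TAGLN marks contractile cells. TAGLN (Entrez 6876; chr11:117199321-117204782, plus strand), transgelin, stood at 11.6, 11.6 and 9.85 CPM in MDA-MB-231 controls and 75.7, 35.8 and 39.6 CPM with extract. In HCC1937, TAGLN was at 3.88, 6.104 and 4.85 CPM in controls and 6.92, 8.398 and 7.81 CPM with extract. The extract libraries lay above the controls in both lines, with E7 the highest. TAGLN had the largest rise of the members in MDA-MB-231 as deposited and without E7, 2.19 ± 0.26 (SE; 4.55-fold, edgeR adjusted p = 1.75e-05), 1.78 without E7 and 1.55 with the offset, where CFL2 ranked above it, and missed the threshold in HCC1937, at 0.64 ± 0.28 (edgeR adjusted p = 0.0562; -0.09 with the offset). TAGLN2 (Entrez 8407; chr1:159918107-159925732, minus strand), the broadly expressed relative, stood at 392, 384 and 377 CPM in MDA-MB-231 controls and 810.4, 757 and 744 CPM with extract. HCC1937 held 455, 445 and 442 CPM in controls and 1484, 1491 and 1485 CPM with extract. No extract library overlapped a control, and the spread within groups was small in every group. It rose by 1.00 ± 0.072 (edgeR adjusted p = 2.24e-07; 0.97 without E7) and by 1.73 ± 0.073 (edgeR adjusted p = 3.86e-09), which was the largest rise of a member in HCC1937 as deposited. With the offset the values were 0.27 and 0.87, and in HCC1937 FLNA, CFL2, PAK2, TPM3 and ACTN1 ranked above it. CNN2 (Entrez 1265; chr19:1026581-1039068, plus strand), calponin 2, stood at 171, 161 and 164 CPM in MDA-MB-231 controls and 343, 346 and 336 CPM with extract. The HCC1937 levels of CNN2 were 133, 131 and 131 CPM in controls and 227, 232 and 239 CPM with extract. E7 was level with E8 and E9, and the groups did not overlap. CNN2 rose by 1.05 ± 0.064 (edgeR adjusted p = 6.5e-08; 1.05 without E7) and 0.82 ± 0.064 (edgeR adjusted p = 3.28e-07), and the offset ended the HCC1937 call, at 0.07 (edgeR adjusted p = 0.246), and left 0.42 in MDA-MB-231. CNN3, calponin 3, was not called in MDA-MB-231, at 0.04, and fell in HCC1937, with -0.28. It was -0.03 in MDA-MB-231 without E7, and with the offset it was called lower in both lines, at -0.17 and -0.22. An offset from the median-length transcript instead gave a call higher for CNN3 in HCC1937, at 0.92 (edgeR adjusted p = 8.89e-08).

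In the pathway from p21-activated kinases (PAK) through LIM kinases to cofilin, PAK1 moved apart in the lines and CFL1 rose in both. PAK1 (Entrez 5058; chr11:77321707-77474635, minus strand), an effector kinase of RAC1 and CDC42, stood at 89.7, 86.4 and 88.7 CPM in MDA-MB-231 controls and 53.8, 62.3 and 56.9 CPM with extract. In HCC1937 the levels were 35.8, 35.5 and 34.2 CPM in controls and 53.2, 54.9 and 58.2 CPM with extract. Every extract library lay below the controls in MDA-MB-231 and above them in HCC1937, and E7 lay just below E9. The log2 fold changes were -0.61 ± 0.077 (SE; edgeR adjusted p = 2.54e-05; -0.56 without E7) and 0.66 ± 0.078 (edgeR adjusted p = 1.12e-05), and -0.73 and 0.68 with the offset. CFL1 (Entrez 1072; chr11:65823022-65862026, minus strand), cofilin, which severs filaments, stood at 970, 932 and 922 CPM in MDA-MB-231 controls and 2226, 1574 and 1628 CPM with extract. HCC1937 libraries held 927, 904 and 925 CPM in controls and 2744, 2755 and 2732 CPM with extract. The groups did not overlap, with E7 highest in MDA-MB-231. CFL1 rose by 0.94 ± 0.12 (edgeR adjusted p = 3.12e-05; 0.77 without E7) and by 1.58 ± 0.12 (2.99-fold; edgeR adjusted p = 3.38e-07), and by 0.23 and 0.77 with the offset. LIMK1, which phosphorylates cofilin, rose in HCC1937 by 1.07 and was not called in MDA-MB-231, at 0.42, until E7 was left out (0.66), and the offset gave 0.03 and 0.55. LIMK2, its relative, rose in MDA-MB-231 by 0.84 (1.06 without E7) and was not called in HCC1937, at 0.06. With the offset LIMK2 was 0.52 in MDA-MB-231 and was called lower in HCC1937, at -0.35 (edgeR adjusted p = 0.0106). PAK2 and CFL2, whose transcripts are long and poor in GC, turned higher with the offset in both lines. PAK2, a second p21-activated kinase, had a log2 fold change of -0.40 in MDA-MB-231 (edgeR adjusted p = 0.0496; -0.18 without E7) and -0.37 in HCC1937 (edgeR adjusted p = 0.0654), and 0.90 and 1.25 with the offset. CFL2, the muscle-type cofilin, was 0.07 and not called in MDA-MB-231 (-0.18 without E7) and fell in HCC1937, at -0.43 (edgeR adjusted p = 0.0276), and 1.82 and 1.53 with the offset. With an offset from the median-length transcript PAK2 kept its negative sign in MDA-MB-231, and CFL2 was 0.35 in HCC1937.

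Of the filament builders, DIAPH2, DIAPH3 and WASL fell in both lines. DIAPH2 (Entrez 1730; chrX:96684663-97604997, plus strand), a formin that elongates unbranched filaments, stood at 15.4, 16.7 and 14.9 CPM in MDA-MB-231 controls and 2.92, 2.61 and 2.55 CPM with extract. In HCC1937, DIAPH2 held 22.6, 24.98 and 23.2 CPM in controls and 5.75, 6.27 and 9.13 CPM with extract. The extract libraries were close together and far below the controls in MDA-MB-231, and also lower without overlap in HCC1937. It fell with -2.55 ± 0.17 (SE; edgeR adjusted p = 1.39e-07; -2.59 without E7) and -1.74 ± 0.15 (edgeR adjusted p = 8.49e-07). The offset left -0.88 in MDA-MB-231 and ended the call in HCC1937, at 0.12 (edgeR adjusted p = 0.535). DIAPH3 (Entrez 81624; chr13:59665583-60163987, minus strand), a formin with a role in cytokinesis, stood at 74.6, 76.6 and 82.96 CPM in MDA-MB-231 controls and 16, 18.9 and 18.2 CPM with extract. Its levels in HCC1937 were 125, 132 and 129 CPM in controls and 25.3, 25.8 and 24.4 CPM with extract. Groups were far apart in both lines, with E7 only slightly below E8 and E9. The log2 fold changes of DIAPH3 were -2.14 ± 0.086 (edgeR adjusted p = 2.82e-09; -2.07 without E7) and -2.35 ± 0.085 (edgeR adjusted p = 1.84e-09), and -1.15 and -0.99 with the offset. WASL, which activates branching by ARP2/3, fell with -1.28 (-1.30 without E7) and -1.73, and with -0.34 and -0.38 after the offset. DIAPH1, the third formin, rose in HCC1937 by 0.84 and was not called in MDA-MB-231, at 0.37, where it rose by 0.65 without E7. With the offset DIAPH1 was called in both lines, at 0.30 (edgeR adjusted p = 0.0126) and 0.79 (edgeR adjusted p = 7.85e-06). CTTN, cortactin, which holds branches in place, was called in neither line, at -0.04 (0.14 and called without E7) and -0.09, and was lower in both with the offset, at -0.42 and -0.58.

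As deposited, girdin showed the largest fall of all members in both lines, whereas with the offset TPM2 fell most in HCC1937. CCDC88A (Entrez 55704; chr2:55287842-55419895, minus strand) encodes girdin, an actin-binding protein that is a substrate of AKT and acts in cell migration. It stood at 84.8, 94.1 and 92.3 CPM in MDA-MB-231 controls and 2.21, 3.57 and 4.38 CPM with extract. In HCC1937 it fell from 45.3, 51.8 and 53.1 CPM in controls to 4.94, 4.02 and 5.13 CPM with extract. The highest extract library of each line was far below the lowest control, and E7 was the lowest of its group. The fall was 26.04-fold in MDA-MB-231, -4.70 ± 0.19 on the log2 scale (SE; edgeR adjusted p = 3.27e-09; -4.51 without E7), and 10.6-fold in HCC1937, -3.41 ± 0.18 (edgeR adjusted p = 1.39e-08). CCDC88A has one of the longest and GC-poorest transcripts of the list (9.78 kb, 37.8%), and with the offset the values were -2.77 and -1.34, both called. The 2 exchange factors that activate RHOA moved in opposite directions. ARHGEF12 (Entrez 23365; chr11:120336914-120489936, plus strand) stood at 203, 211 and 229.7 CPM in MDA-MB-231 controls and 39.6, 92.3 and 93.8 CPM with extract. Its HCC1937 values were 206, 237 and 218 CPM in controls and 54.5, 55.98 and 60.4 CPM with extract. The groups did not overlap, and E7 was less than E8 and E9. ARHGEF12 fell, with -1.51 ± 0.25 (edgeR adjusted p = 0.000201; -1.20 without E7) and -1.95 ± 0.25 (edgeR adjusted p = 2.19e-05). With the offset the MDA-MB-231 call ended, at -0.19 (edgeR adjusted p = 0.256), and -0.43 was left in HCC1937. ARHGEF2, a microtubule-bound exchange factor, rose by 0.74 (0.98 without E7) and 1.20, and by 0.49 and 0.82 with the offset.

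The ERM proteins, which anchor filaments to the plasma membrane, did not move as 1 group: RDX fell and EZR rose in both lines, and MSN rose in HCC1937. RDX (Entrez 5962; chr11:109864295-110296722, minus strand), radixin, stood at 63.5, 66.3 and 66.99 CPM in MDA-MB-231 controls and 11.03, 15.8 and 14.7 CPM with extract. HCC1937 gave 125, 144 and 144 CPM in controls and 27.4, 27 and 25.4 CPM with extract. Extract libraries lay far below controls in both lines. RDX fell with -2.24 ± 0.12 (SE; edgeR adjusted p = 2.84e-08; -2.10 without E7) and -2.37 ± 0.12 (edgeR adjusted p = 1.14e-08), and the offset left -1.02 and -0.77. MSN (Entrez 4478; chrX:65588377-65741931, plus strand), moesin, stood at 2504, 2562 and 2607 CPM in MDA-MB-231 controls and 1078, 2658 and 2681 CPM with extract. Its levels in HCC1937 were lower throughout, at 305, 327 and 323 CPM in controls and 632, 647 and 643 CPM with extract. E7 was far below the MDA-MB-231 controls while E8 and E9 lay just above them, and the HCC1937 groups did not overlap. MSN rose in HCC1937, by 1.01 ± 0.26 (edgeR adjusted p = 0.004; 0.87 with the offset), and was not called in MDA-MB-231, at -0.26 ± 0.26 (edgeR adjusted p = 0.393). Without E7 it was 0.07 (edgeR adjusted p = 0.0469), and with the offset -0.48 (edgeR adjusted p = 0.0369). EZR, ezrin, rose in both lines, by 1.02 (1.14 without E7) and 0.59, and by 0.68 and 0.26 with the offset.

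The extract effect differed between the lines for 16 members, 8 higher and 8 lower in HCC1937 than in MDA-MB-231, by the test of the difference itself, where 11.5% of all genes tested were called higher and 20.6% lower. The 3 members with the largest positive difference were CCDC88A, PAK1 and MSN. Of these, CCDC88A fell in both lines and fell less in HCC1937, with a difference of 1.29 ± 0.25 (SE; edgeR adjusted p = 0.00219). For PAK1 the difference was 1.27 ± 0.11 (edgeR adjusted p = 1.05e-05), with the 2 lines on opposite sides of 0. For MSN it was 1.27 ± 0.36 (edgeR adjusted p = 0.0197), and 0.96 without E7. The 3 largest negative differences were those of MYL9, TAGLN and PPP1CB. MYL9 differed by -3.29 ± 0.86 (edgeR adjusted p = 0.0128), a value that rests on 27 and 8 reads in HCC1937. TAGLN rose more in MDA-MB-231, with a difference of -1.55 ± 0.38 (edgeR adjusted p = 0.00875; -1.13 without E7), and PPP1CB fell more in HCC1937, with -1.43 ± 0.14 (edgeR adjusted p = 2.7e-05). Without E7, 18 members were called higher and 18 lower (background 24.7% and 33.3%), and with the offset 15 and 10 (background 18.7% and 20.6%). Both comparisons use separate controls, and line, medium and concentration cannot be told apart in the difference.

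Before any extract, the lines differed in most members: 12 were higher and 20 lower in HCC1937 controls than in MDA-MB-231 controls, where 38.7% of all genes tested were called higher and 36.7% lower. With the offset 12 were higher and 24 lower (background 38.99% and 42.5%). The largest differences were in MYH14 and MYL9. MYH14 was at 1.13, 0.331 and 0.471 CPM in MDA-MB-231 controls and 408, 386 and 359 CPM in HCC1937 controls, a log2 difference of 9.19 ± 0.28 (SE; edgeR adjusted p = 1.13e-10). MYL9 went the other way, at -7.17 ± 0.41 (edgeR adjusted p = 1.73e-08). Moesin was lower in HCC1937 (-3.01) and ezrin and radixin higher (1.97 and 1.07). Among the actins, ACTB was higher in HCC1937 (1.09) and ACTG1 lower (-0.97). TPM2 (-2.59), MYLK (-2.55), PPP1R12A (-1.41), PAK1 (-1.33), ARHGEF2 (-1.23) and FLNA (-1.21) were lower in HCC1937, and CTTN was higher (1.09). Compared per length, as CPM per kb of the longest coding transcript, the most abundant members in MDA-MB-231 controls were ACTG1 at 1369, ACTB at 1213, MSN at 648, CFL1 at 501 and MYL6 at 309. In HCC1937 controls they were ACTB at 2583, ACTG1 at 700.2, CFL1 at 489 and TAGLN2 at 279. ACTB had the highest level per length in both extract groups, at 3109.9 and 5713 CPM per kb, so that it passed ACTG1 in MDA-MB-231 with extract.

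**Figure D3:**
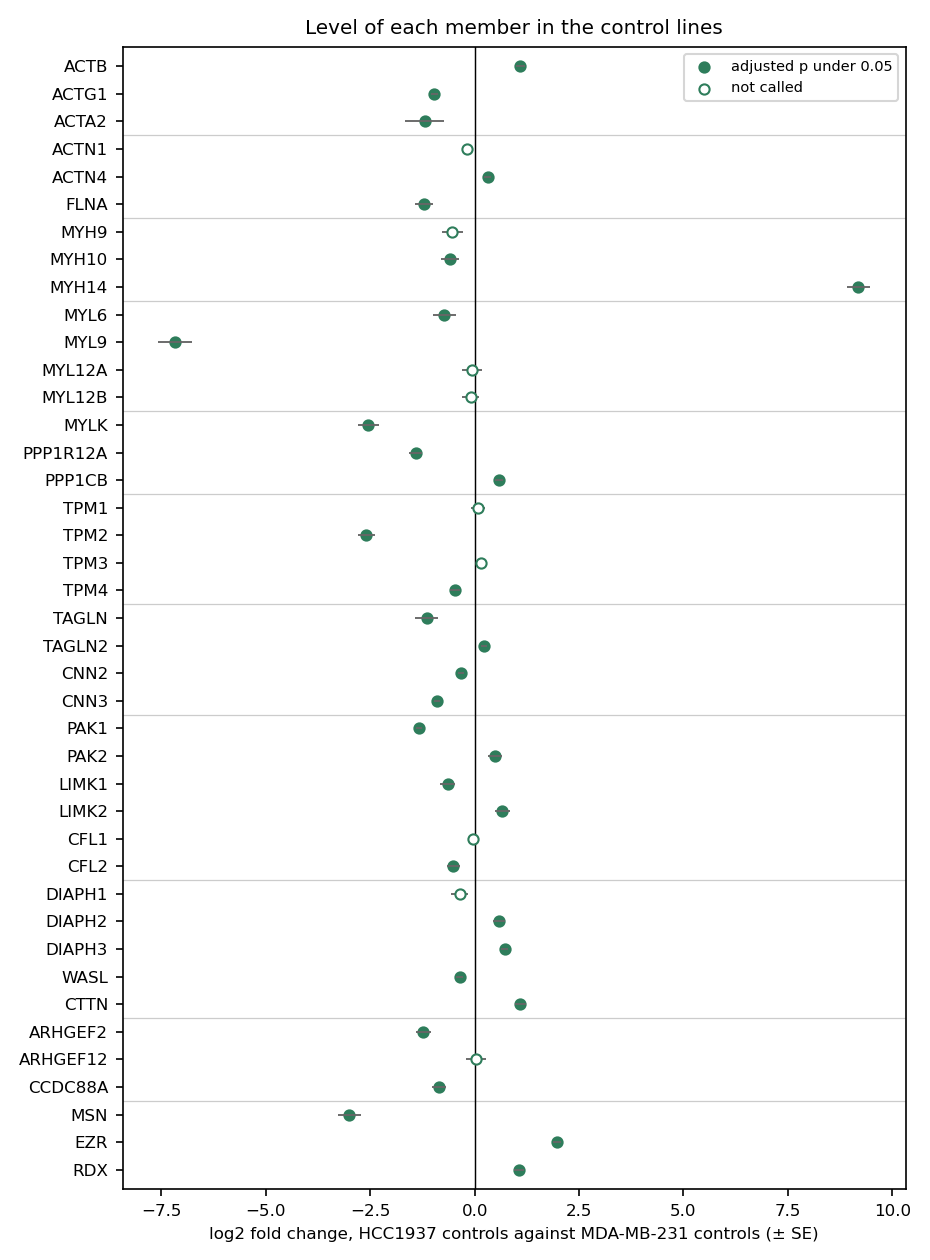
Log2 difference of each member between HCC1937 controls and MDA-MB-231 controls (± SE), filled where the adjusted p was under 0.05. MYH14 at 9.19 and MYL9 at -7.17 lie far outside the range of the other members, and MSN is at -3.01.

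The direction of a member went with the shape of its transcript, as it did over all genes. Across the 41 members, log2 fold changes had a Spearman correlation with GC content of 0.69 in MDA-MB-231 and 0.61 in HCC1937, and with length of -0.48 and -0.40. Of the 10 members over 4 kb with at most 42% GC (PPP1R12A, PPP1CB, PAK2, CFL2, DIAPH2, DIAPH3, WASL, ARHGEF12, CCDC88A and RDX), 9 fell in each line, where 80.7% and 83.9% of all 1928 genes of that class fell, and their medians were -1.82 and -1.93 beside -1.42 and -1.82 over the class. With the offset the medians of these members were -0.61 and -0.40, beside 0.02 and -0.15 over the class. Of the 13 members of at most 4 kb with over 54% GC, 10 rose and 1 fell in MDA-MB-231 and 8 rose and 1 fell in HCC1937, and the 1 that fell was TPM2 in both lines. Of all 3755 genes of that class, 54.5% rose and 12.6% fell in MDA-MB-231 and 60.9% rose and 14.6% fell in HCC1937, so 8 of 13 was near the share of the class. Over the 15 settings run in MDA-MB-231, offsets and left-out libraries included, 21 of its 31 calls kept direction and call, and over the 14 in HCC1937 21 of its 29 did. Called in both lines under every one of those settings were 8 members that rose (ACTB, ACTG1, ACTN1, MYL6, TPM3, TAGLN2, CFL1 and EZR) and 6 that fell (MYH10, PPP1R12A, TPM2, DIAPH3, CCDC88A and RDX). No share over all genes is given for calls kept under every setting, and the settings mostly reuse the same libraries. These counts therefore do not set the members apart from other genes.

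**Figure D4:**
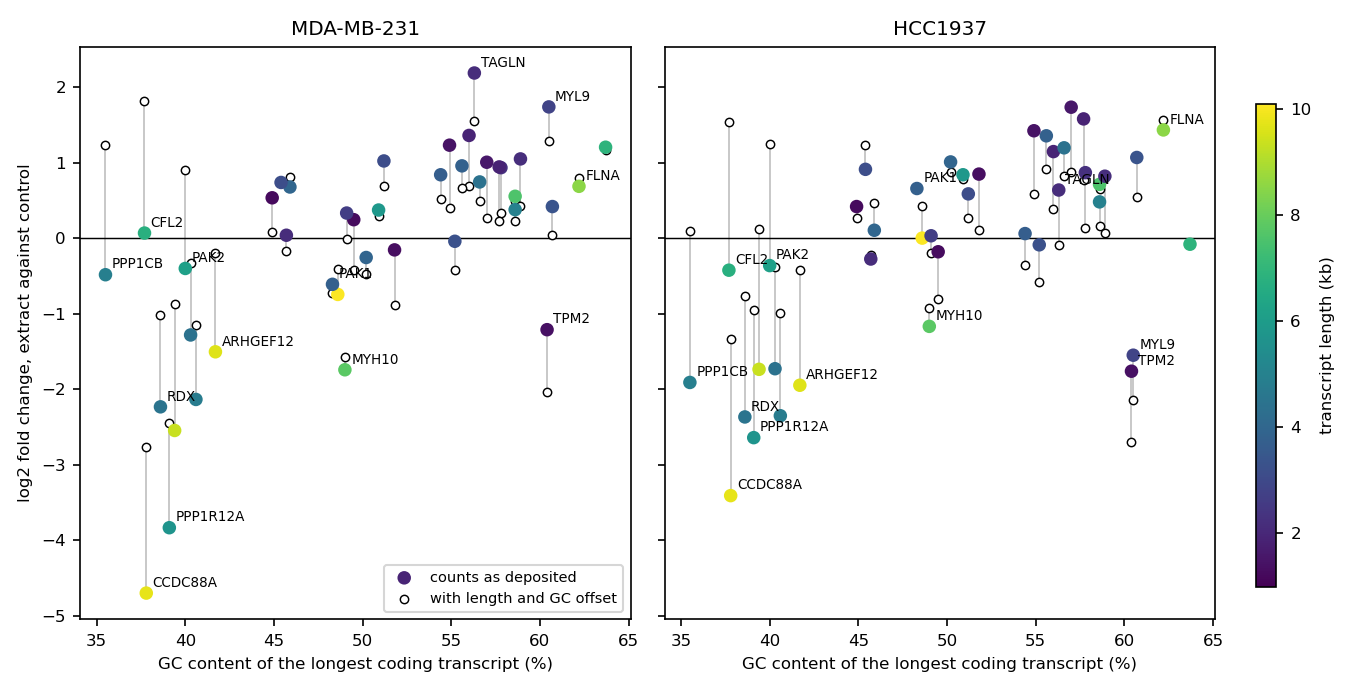
Log2 fold change of each member against the GC content of its longest coding transcript in MDA-MB-231 (left) and HCC1937 (right), coloured by transcript length, with open circles for the fit with a length and GC offset and grey lines joining the values of 1 gene. Members at the left are mostly long and negative as deposited and move up with the offset, past 0 for PPP1CB and PAK2 in both lines, and TPM2 is the short GC-rich member that stays low.

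The log2 level of each member in E7 minus the mean of E8 and E9 had a median size of 0.64 over the members, where E8 and E9 differed from each other by a median of 0.04. These differences ran from -1.31 to 1.45 and correlated with transcript length at a Spearman coefficient of -0.65 (n = 41 genes that share 1 library). MSN, CTTN, MYL12B, CFL2 and CNN3 changed sign without it. None of these 5 was called with it, and all but CNN3 were called without it. CTTN was 0.14 without E7 (edgeR adjusted p = 0.0013), and CFL2 was -0.18 (edgeR adjusted p = 0.0152).

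**Figure D5:**
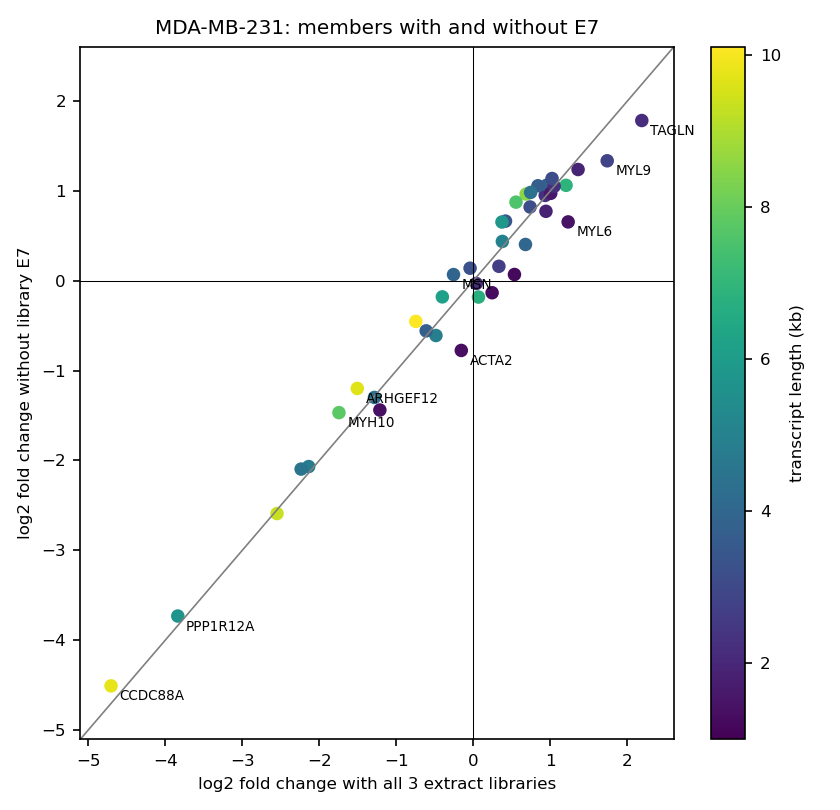
Log2 fold change of each member in MDA-MB-231 with all 3 extract libraries (horizontal) and without E7 (vertical), coloured by transcript length, with the line of equal values. Short transcripts such as MYL6 and TAGLN lie below the line and long ones such as MYH10 and ARHGEF12 above it, and the lowest members, CCDC88A and PPP1R12A, stay at -4.51 and -3.73 without E7.

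Other genes of the same pathways were counted in 3 lists, beside shares over all genes tested of 33.02% higher and 32.8% lower in MDA-MB-231 and 32.7% and 39.1% in HCC1937. Of 18 genes for the ARP2/3 and WAVE complexes, 7 rose and 7 fell in MDA-MB-231 and 8 rose and 6 fell in HCC1937, with medians of 0.02 and 0.48. These counts were near those shares in MDA-MB-231. The ARP2/3 subunit ARPC4 rose (1.29 and 1.42), and ACTR2 and ACTR3, the actin-related core, fell (-0.94 and -1.14; -0.26 and -0.77), but with the offset ACTR3 was higher in both lines (1.74 and 1.40), and ACTR2 was not called in MDA-MB-231 (0.18) and higher in HCC1937 (0.41). Of 22 genes for actin monomer binding, capping and severing, 9 rose in each line and 5 and 7 fell, with medians of 0.16 and 0.22. Profilin (PFN1), which loads monomers onto formins, rose by 1.47 and 1.46, and by 0.89 in MDA-MB-231 without E7. Of 15 genes of the MRTF and SRF programme, 9 rose and 6 fell in MDA-MB-231 and 10 rose and 4 fell in HCC1937, with medians of 0.67 and 0.64, and 0.64 and 0.58 with the offset. In this list SRF (1.23 and 0.97), MRTFA (1.32 and 0.88) and the secreted targets CCN1 (1.25 and 1.13) and CCN2 (1.98 and 1.17) rose, and MRTFB (-1.31 and -2.21) and caldesmon, CALD1 (-2.66 and -2.30), fell. Over all genes tested the medians were 0.00 and -0.16, and no test was made of a list.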

How the data were processed

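Poly-T captured RNA of 12 libraries was sequenced, per the labels' protocols, although the kit named there is for total RNA. The submitters' processing notes name FastQC 0.12.1, fastp 0.23.4, Salmon 1.10.3, DESeq2, R 4.4.1 and GRCh38; neither they nor the labels state the annotation release or how transcripts were summed to genes. The deposited table holds expected counts from the authors, with 52.8% of values not whole, which were rounded. In R 4.3.3, edgeR 4.0.16 kept 14133 genes (filterByExpr), scaled libraries by TMM, and fitted 4 groups in 1 quasi-likelihood model, with Benjamini-Hochberg adjustment over all genes tested. The offset was a smooth surface of length and GC content per library (mgcv 1.9.3) from the longest coding transcript in GENCODE 29, which 14054 genes matched; coordinates are GRCh38 from that release. The share of 31-base words found in other genes came from the same transcripts. Alternatives were DESeq2 1.42.0, limma voom 3.58.1 with library weights, DESeq2 size factors, no filter, no mitochondrially encoded genes, the libraries compared alone, and each library left out. The edgeR fits with and without the offset were tested on simulated data. Its spread was set without the MDA-MB-231 extract group, and it held no extract trend with length or GC content. It therefore cannot speak to the spread that E7 brings or to the offset under such a trend. Floors cover counting error only. Values in every library are printed for the 5 largest rises and falls per line among called members with a mean of at least 5 CPM, and for the 3 largest differences each way; MYH9, MYH10 and the controls of MYH14 were added after their values were seen. One further pathway list is not reported here. The members and lists were chosen with earlier results of these data known. Motifs were searched in RefSeq promoters of GRCh38.p14.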

Additional observations from a re-analysis of the deposited data

Results flagged for a closer look

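The extract effect differed between the lines for 16 members by edgeR's test of the difference (HCC1937 minus MDA-MB-231), which called 11.5% of all genes tested higher and 20.6% lower. On the log2 scale it was higher in HCC1937 by 1.29 for CCDC88A, 1.27 for PAK1, 1.27 for MSN, 1.19 for PPP1R12A, 0.81 for DIAPH2, 0.73 for TAGLN2, 0.64 for CFL1 and 0.40 for ACTN1. The difference was negative for the others, at -3.29 for MYL9, -1.55 for TAGLN, -1.43 for PPP1CB, -1.28 for MYH14, -0.78 for LIMK2, -0.45 for WASL, -0.44 for EZR and -0.31 for CNN3. Over the 20 settings run, 10 of the 16 kept direction and call (PPP1R12A, TAGLN2, PAK1, CFL1, DIAPH2, CCDC88A, MSN, MYL9, PPP1CB and TAGLN). The share of all genes that did so is not given here. PAK1 was the 1 member whose calls in the 2 lines were opposite as deposited, and with the offset those of MYLK, LIMK2 and MSN were opposite too. No share over all genes is given for opposite calls with the offset. MYL9 rests on 27 and 8 reads in HCC1937 and MYH14 on 39 and 93 reads in MDA-MB-231. Medium and concentration differed with the line and cannot be told apart from it.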

How the results depend on the processing

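Counts of members that rose and fell in each line, and between controls, stayed within 1.5 times under all settings run. Leaving out 1 library at a time gave 17 to 23 rises and 12 to 16 falls in MDA-MB-231, and 16 to 18 and 11 to 12 in HCC1937. It gave 11 to 12 and 17 to 19 between controls. Other settings went further. MDA-MB-231 had 15 rises and 11 falls with its libraries alone, and 11 falls with the offset from the median-length transcript. HCC1937 had 22 rises and 14 falls with its libraries alone, 20 and 16 by voom, and 10 falls with DESeq2 size factors. The difference between the lines did not. Its 4539 genes became 8617 by limma voom with library weights and 7778 with the offset and without E7, and 3690 to 8334 when 1 library was left out. Its 8 members called higher became 13 by DESeq2, 17 by voom, 15 with the offset, 13 with the offset from the median-length transcript, 20 with the offset and without E7, and 7 to 18 when 1 library was left out. Its 8 called lower became 4 with DESeq2 size factors, 18 by voom, 13 with the offset and without E7, and 4 to 18 when 1 library was left out; the 18 were found without E7, and 4 without E2 or E3. Using the HCC1937 libraries alone moved the median of all genes there by 0.11, and DESeq2 size factors moved it by 0.11 for the difference. Over all alternatives 96 member values took the other sign, 52 of them with no call before or after, and the 44 with a call on at least 1 side are as follows. With the length and GC offset the called values that changed side were MYL12B -0.43, PPP1CB 1.23, TPM4 -0.007, CNN3 -0.17, PAK2 0.90 in MDA-MB-231, and MYLK 0.42, PPP1CB 0.095, PAK2 1.25, LIMK2 -0.35, CFL2 1.53, DIAPH2 0.12 in HCC1937, and ACTN4 -0.24, MYL12A 0.19, TAGLN2 -0.016 between the controls. With an offset from the median-length transcript the called values that changed side were ACTN4 -0.13, WASL 0.052 in MDA-MB-231, and ACTN4 -0.16, MYL12B 0.73, CNN3 0.92, LIMK2 -0.27, CFL2 0.35 in HCC1937, and CNN3 0.095 for the difference between the lines, and ACTN4 -0.12, TAGLN2 -0.11 between the controls. By limma voom with library weights the called values that changed side were MYL12B -0.12, CFL2 -0.19, CTTN 0.14 in MDA-MB-231, and MYL12A 0.33, PAK2 -0.17 for the difference between the lines. Without library E7 the called values that changed side were MYL12B -0.13, CFL2 -0.18, CTTN 0.14, MSN 0.068 in MDA-MB-231, and MYH9 -0.14, MYL12A 0.37, PAK2 -0.16 for the difference between the lines. With the offset and without E7 the called values that changed side were MYL12B -0.48, PPP1CB 1.11, TPM4 -0.16, CNN3 -0.12, PAK2 1.05, ARHGEF12 0.002 in MDA-MB-231, and MYL12A 0.31, WASL 0.019 for the difference between the lines. Leaving out 1 library at a time, the values named without E7 ranged from -0.134 to 0.407 for MYL12B in MDA-MB-231, -0.182 to 0.228 for CFL2 in MDA-MB-231, -0.138 to 0.139 for CTTN in MDA-MB-231, -0.450 to 0.068 for MSN in MDA-MB-231, -0.140 to 0.374 for MYH9 for the difference between the lines, -0.309 to 0.370 for MYL12A for the difference between the lines and -0.163 to 0.189 for PAK2 for the difference between the lines. The cause was not tested. In all, 85.7% of 2582 member values kept both sign and call. Depth limits the levels of MYL9 in HCC1937 and of MYH14 in MDA-MB-231. No paired analysis was possible because the replicate numbers of the groups are not shared. The offset and E7 combination and the median-length transcript were added after seeing the data.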

Other observations

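Other motifs were counted on both strands of the same 250 bases before the start site. The TATA box TATAAA was found in 4.55% of the 66 member promoters and 9.01% of all 22198 (ACTN1, ARHGEF12 and MYLK held it). The GC box GGGCGG was found in 66.7% and 53.7%, and the TEAD motif GGAATG in 12.1% and 10.5%. PPP1R12A, DIAPH3 and MYH10, which fell in both lines, and ACTN1, which rose in both, were among the 7 members with GGAATG. Overlap between these motifs and the CArG box was not searched. The keratins KRT8 and KRT18, intermediate filament genes outside the actin system, come from a list of 6 epithelial markers. They were chosen for mention after their values were seen. In MDA-MB-231 KRT8 stood at 472 ± 17.7 CPM in controls and 845 ± 239 CPM with extract (SD, n = 3), and KRT18 at 274 ± 8.29 and 1024 ± 401 CPM. In HCC1937 KRT8 stood at 2305 ± 48.9 and 5720.4 ± 10.8 CPM, and KRT18 at 1259 ± 20.6 and 4258 ± 73.2 CPM. Other markers of the list went down in HCC1937, EPCAM from 173 ± 7.75 to 94.5 ± 2.17 CPM and CDH1 from 186 ± 5.34 to 120 ± 4.06 CPM. KRT5 (58.8 to 72.9 CPM) and KRT19 (5.04 to 7.13 CPM) went up there. EPCAM stood at 12.1 ± 1.34 and 9.9 ± 4.52 CPM in MDA-MB-231.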
